A study of Homo sapiens with 9 samples.

Results

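MicroRNA levels in the light extracellular fraction were compared with those in the dense extracellular fraction of the same 3 cultures of HMC-1, a human mast cell line derived from a mast cell leukaemia. The members are the 3 arrays titled LD and the 3 titled HD, 6 of the 9 arrays of the series, and all miRNA probes on them. LD (low density) and HD (high density) are parts of a sucrose gradient that had been loaded with the RNA-containing material HMC-1 cells released into their medium, collected by ultracentrifugation per the design text of the series. The labels give no treatment, and each number (1 to 3) marks 1 culture, so LD 1 and HD 1 come from the same cells. The remaining 3 arrays hold RNA of the cells themselves and serve here only for the estimate of spread and as a description. Each array carried 2019 miRNA probes, of which the 334 detected on all 3 arrays of at least 1 of the 3 groups were tested. A single leukaemia-derived line was studied, and its 3 cultures are the only replicates, so the p-values measure the spread between these arrays. Where an array did not detect a probe, that spread includes a value set to the lowest detected value of the array. The unit is the authors' normalized signal, which sets the median detected miRNA probe of every array to 25. The amount of RNA per fraction is therefore not measured, and less released material and less RNA per particle cannot be told apart.

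MicroRNAs are short RNAs that guide Argonaute proteins to messenger RNAs, mainly through the seed, the stretch of bases near the 5′ end that pairs with the target. Cells also release small RNAs, inside membrane vesicles and bound to proteins or lipoproteins, and a sucrose gradient parts this material by buoyant density. Vesicles of mast cells are known to carry RNA to other cells, and some numbered miRNA entries are now known to overlap transfer RNA, ribosomal RNA or small nuclear RNA.

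The mature sequences of miRNAs with large differences in favour of LD are shown first, because they fall into kinds that a reader can recognise: entries related to other small RNAs at the top, then miRNAs of blood cells, then members of conserved families that share a seed. All sequences are from RefSeq (GRCh38.p14), written 5′ to 3′, and the capitals mark the seed, bases 2 to 8.
miR-5100: uUCAGAUCccagcggugccucu
miR-4454: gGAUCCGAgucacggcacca
miR-1260b: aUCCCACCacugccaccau
miR-1260a: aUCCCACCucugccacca
miR-223-3p: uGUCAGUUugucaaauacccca
miR-21-5p: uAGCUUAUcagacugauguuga
miR-142-5p: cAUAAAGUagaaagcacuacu
let-7a-5p: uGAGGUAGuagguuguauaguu
let-7d-5p: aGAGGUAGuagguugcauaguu
let-7f-5p: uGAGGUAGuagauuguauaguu
miR-15b-5p: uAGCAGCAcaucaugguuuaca
miR-16-5p: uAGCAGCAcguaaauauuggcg
miR-17-5p: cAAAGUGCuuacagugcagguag
miR-20a-5p: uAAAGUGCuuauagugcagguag
miR-20b-5p: cAAAGUGCucauagugcagguag

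The sequences of the probes with large differences in favour of HD are shown for contrast, and most of them are rich in G.
miR-4655-5p: cACCGGGGauggcagagggucg
miR-1202: gUGCCAGCugcagugggggag
miR-4688: uAGGGGCAgcagaggaccuggg
miR-4530: cCCAGCAGgacgggagcg
miR-642b-3p: aGACACAUuuggagagggaccc
miR-6076: aGCAUGACagaggagaggugg
miR-1275: gUGGGGGAgaggcuguc
miR-6124: gGGAAAAGgaagggggagga
miR-1246: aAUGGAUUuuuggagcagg

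The last set shows sequences from 1 locus that parted between the fractions: both arms of 3 hairpins, and miR-642a-3p, the near-identical partner of miR-642b-3p above.
miR-642a-3p: aGACACAUuuggagagggaacc
miR-125a-5p: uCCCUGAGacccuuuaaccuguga
miR-125a-3p: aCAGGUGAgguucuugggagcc
miR-92b-3p: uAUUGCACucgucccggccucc
miR-92b-5p: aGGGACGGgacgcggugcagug
miR-4758-3p: uGCCCCACcugcugaccacccuc
miR-4758-5p: gUGAGUGGgagccgguggggcug
In the RefSeq table miR-5100 lies at chr10:42997630-42997651 (plus strand), miR-4454 at chr4:163093607-163093626 (minus) and miR-4530 at chr19:39409629-39409646 (minus). The miR-642 entries lie on opposite strands of chromosome 19, miR-642a-3p at chr19:45674978-45674999 (plus) and miR-642b-3p at chr19:45674941-45674962 (minus).

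A probe counted as detected where the deposited file gives a normalized value. LD arrays detected 303, 348 and 368 miRNA probes, and HD arrays 323, 329 and 254, for cultures 1, 2 and 3. The means were 340 ± 33.3 in LD and 302 ± 41.7 in HD (SD, n = 3), and the ranges overlap. LD exceeded HD by 37.7 probes on average, with differences of -20, 19 and 114 in the 3 cultures (exact sign-flip test over the 3 cultures, two-sided p = 0.75, smallest possible p = 0.25). Without culture 3 the mean difference was -0.50 probes. The names of the deposited files place LD 1 on the same slide as the 3 HD arrays, and LD 2 and LD 3 on another slide. Slide is therefore partly confounded with fraction and is addressed beside the results. The 3 cell arrays lie on a slide of their own, so cells and slide cannot be told apart. On the cell arrays, 13 of 17 listed blood and mast cell miRNAs were detected on all 3 arrays. The list includes miRNAs common in other cells, such as miR-21-5p, so this does not test the label of a mast cell line. miR-155-5p and miR-181a-5p, both named in that list, were detected on none of the 9 arrays.

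The fractions of a culture differed at many probes. Of the 334 tested, 174 differed (limma, Benjamini-Hochberg adjusted p under 0.05), which is 52.1%: 86 were higher in LD (25.7%) and 88 were lower in LD (26.3%). At an unadjusted p under 0.05 the count was 184. The log2 differences ran from -5.19 to 7.43, with a median of 0.01. The ranges of the fractions did not overlap in 185 probes (55.4%), among them 84 of the 86 higher and 80 of the 88 lower. The sign was the same in all 3 cultures for 84 of the 86 and for 86 of the 88.

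The probes that favoured LD and those that favoured HD differed in how they were detected. Of the 92 probes detected on all 6 arrays, 15 were higher in LD, 48 were lower and 29 did not pass the test. Of 33 probes detected on all LD arrays and no HD array, 30 were higher in LD. Of 46 detected on all LD and some HD arrays, 38 were higher, 1 was lower (miR-6088, with 1 HD spot left out) and 7 did not pass. In the other direction, 15 of 18 probes found on all HD arrays and no LD array were lower in LD, as were 23 of 32 found on all HD and some LD arrays. A further 72 probes were detected on some LD or HD arrays but on all of neither fraction. Of these, 3 were higher (miR-151b, miR-30b-5p and miR-92b-3p), 1 was lower (miR-3175) and 68 did not pass. Another 41 were detected on no LD or HD array and passed in neither direction. Both of these groups were tested only because all 3 cell arrays detected them. The probes in these brackets were chosen after their values were seen. Detection in only 1 fraction fixes the direction of a probe, so these counts describe the split and do not support it.

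The cell arrays also set the groups apart. All 3 cell arrays detected 83 of the 86 probes higher in LD, but 49 of the 88 lower in LD, of which 16 were on no cell array. Among the probes that did not pass, 145 of 160 were on all 3 cell arrays. That share is largely set by the filter. Of the 160, 68 were on some LD or HD arrays but on all of neither fraction, and 41 on none. Those were tested only because all 3 cell arrays detected them. Among probes detected on all 6 LD and HD arrays, the 3 cell arrays all detected 15 of 15 higher, 39 of 48 lower and 27 of 29 that did not pass. The miRBase number of an entry, which grows with its date of registration, split the probes as well. Entries numbered below 1000, with let-7, gave 53 higher and 17 lower among 174 tested, with a median log2 difference of 0.13. Entries numbered 1000 or above gave 33 higher and 71 lower among 160, with a median of -0.64. Among probes detected on all 6 arrays, the older entries gave 1 higher and 9 lower of 17, and the later entries 14 higher and 39 lower of 75. That set leaves out, by its own filter, probes that some HD arrays did not detect, so nothing is read from the change of split.

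**Figure D1:**
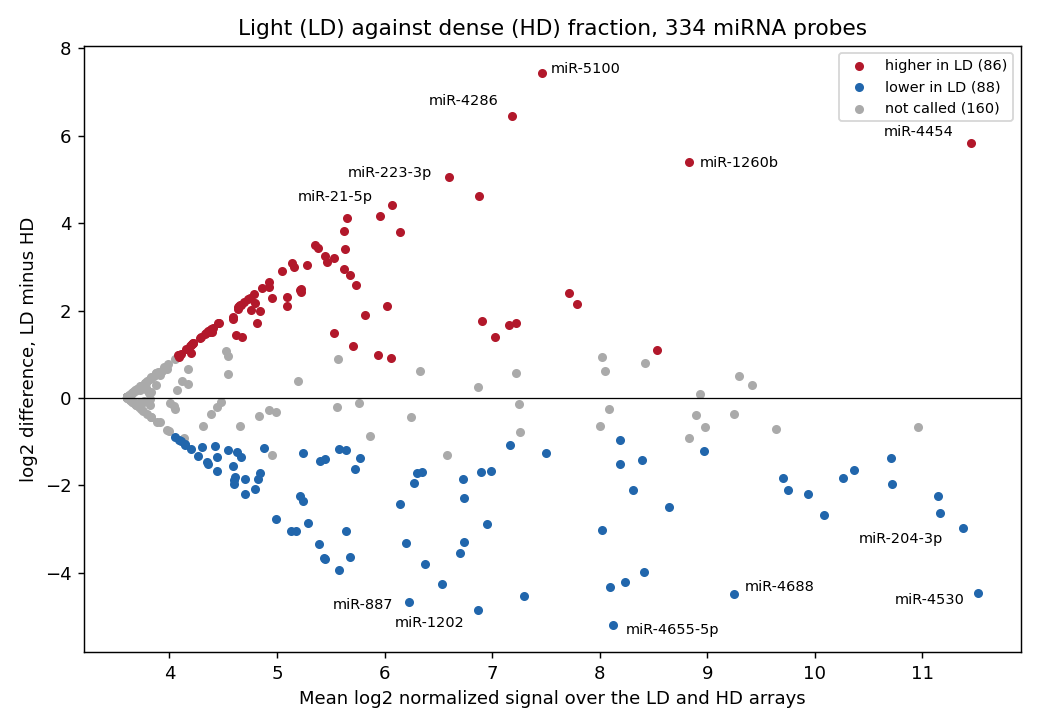
Difference between the fractions (log2, LD minus HD, vertical axis) against the mean log2 normalized signal over the LD and HD arrays (horizontal axis) for the 334 tested probes, with undetected values at the floor of their array. Red points are the 86 probes higher in LD, blue points the 88 lower in LD and grey points the 160 that did not pass the test; miR-5100 is the topmost point at 7.43 and miR-4655-5p the lowest at -5.19.

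The largest differences in favour of LD belonged to entries that overlap other small RNAs. Of the 13 tested members of that list, 9 were higher in LD, 2 were lower and 2 did not pass. Over all tested probes 25.7% were higher and 26.3% lower. The median log2 difference of the list was 2.54. The 0.01 of all tested probes is the value of undetected probes and not a measured benchmark. miR-5100 had normalized signals of 2272, 2278 and 2396 on the LD arrays, was not detected on HD 1 and HD 2, and had 16.5 on HD 3. Its log2 difference was 7.43 ± 0.34 (SE, n = 3 per fraction), 172-fold with the undetected arrays at their floor (limma, adjusted p = 2.5e-07). It was the largest difference of the 334 probes and the LD values lie close together.

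miR-4454, whose sequence matches the 3′ end of a histidine transfer RNA, was bright on every array. It had 18175, 20287 and 25764 on the LD arrays, and 658, 254 and 302 on the HD arrays. Its log2 difference was 5.84 ± 0.41, a 57.3-fold higher signal in LD (limma, adjusted p = 4.21e-06), and the lowest LD value was far above the highest HD value. miR-1260b, which resembles the 3′ end of leucine transfer RNAs, had 2265, 3095 and 3753 in LD, and 156, 62.7 and 35 in HD. It was 42.5-fold higher in LD, at a log2 difference of 5.41 ± 0.48 (limma, adjusted p = 1.18e-05). In culture 1 HD had its highest value of this probe and LD its lowest, so the 3 cultures differ in size but not in direction.

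miR-1260a, chosen after its values were seen because it differs from miR-1260b at 1 base (A9U, miR-1260b first, counted from 1 at the 5′ end), moved the same way. It had 502, 680 and 587 in LD, and 53.3 and 21.0 on HD 1 and HD 2, with no detection on HD 3 (log2 difference 4.62 ± 0.43). The probes of such close sequences may share target RNA, which was not tested. The sequences of miR-4454, miR-1260a and miR-1260b carry CACCA at the 3′ end or 1 base before it. Of the sequences matched, 3 of 71 higher in LD, 0 of 74 lower and 0 of 134 that did not pass had that ending, against 10 of 2370 mature sequences in the table (0.422%). Mature transfer RNAs end in CCA, which is given as background only.

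miR-4286 had 1046, 1619 and 1488 in LD, against 20.6 and 15.6 on HD 1 and HD 3 and no detection on HD 2, a log2 difference of 6.46 ± 0.38. miR-1273g-3p, which had no HD value, was at least 8.47-fold higher in LD. miR-3656, detected on all 6 arrays, was 3.28-fold higher (194, 322 and 320 in LD, and 105, 85.6 and 62.7 in HD). The members that went the other way were miR-1246, which matches part of the U2 small nuclear RNA, and miR-3648, which lies in ribosomal RNA sequence. The 2 members that did not pass, miR-3687 and miR-664a-3p, were on all cell arrays and on no array of either fraction.

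miR-1246 had 71.0, 116 and 92.0 in LD, and 1168, 676 and 523 in HD. It was 8.17-fold lower in LD, at a log2 difference of -3.03 ± 0.39 (limma, adjusted p = 0.000115), with no overlap. miR-3648 had 479, 950 and 910 in LD, and 4851, 2583 and 998 in HD, and the lowest HD value is close to the highest LD value. Its log2 difference was -1.64 ± 0.50 (limma, adjusted p = 0.0174), and that call was lost under 15 of the alternative settings.

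**Figure D2:**
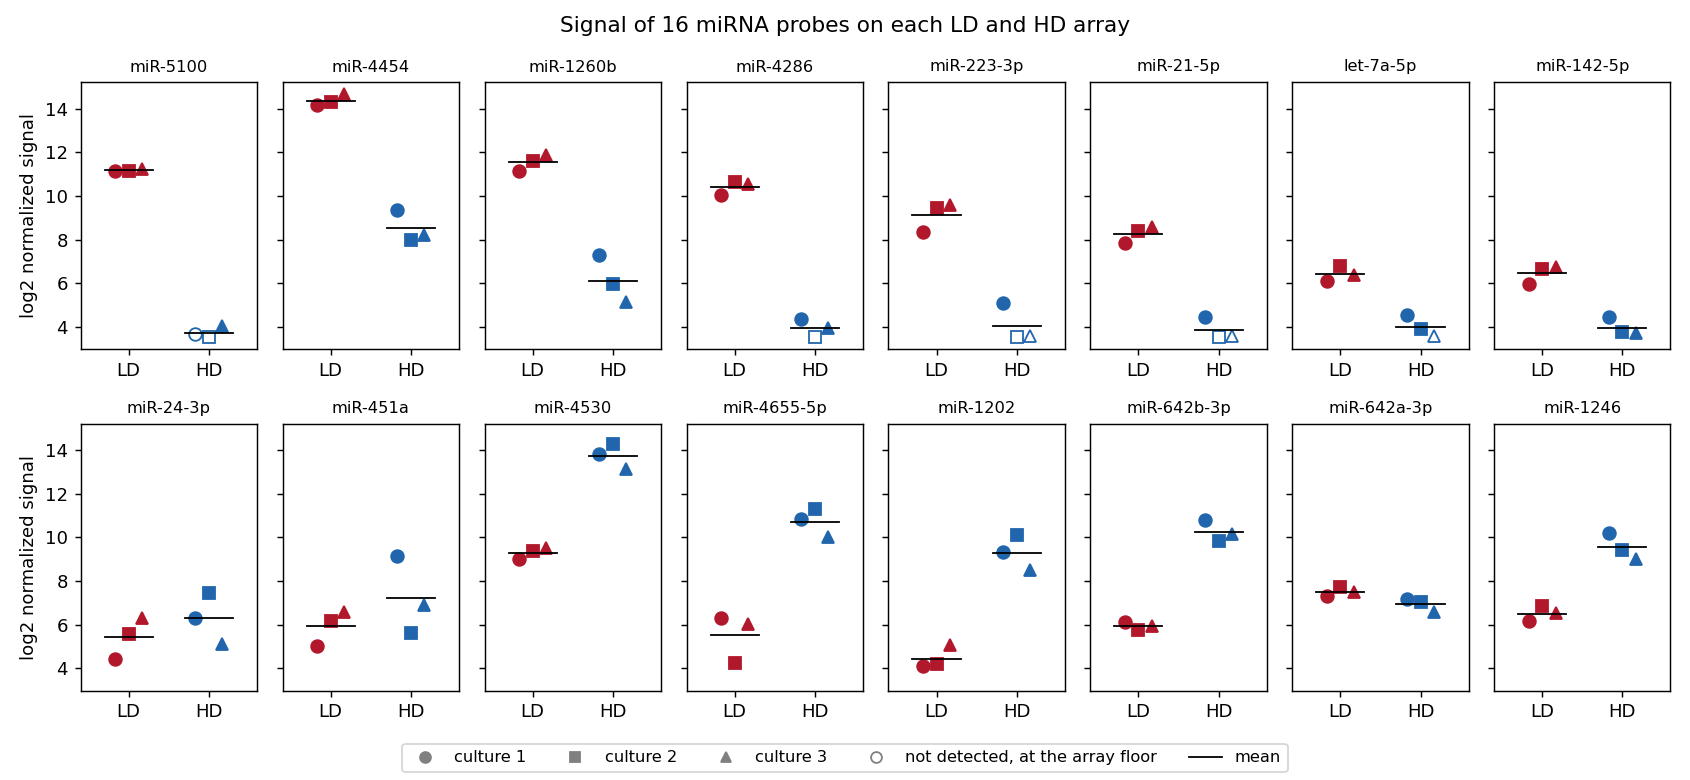
Log2 normalized signal (vertical axis) of 16 miRNA probes on each LD array (red, left in each panel) and each HD array (blue, right), with the shape of a point giving the culture, an open point a probe not detected and drawn at the floor of its array, and a line the mean. miR-5100, miR-4454 and miR-1260b lie far higher in LD, miR-4530, miR-4655-5p and miR-1202 far lower, and the LD and HD points of miR-24-3p and miR-451a overlap.

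MicroRNAs of blood and mast cells were mostly higher in LD. Of the 13 tested members, 10 were higher, 0 were lower and 3 did not pass, against 25.7% higher and 26.3% lower over all tested probes, and the median log2 difference was 2.26. Under the 6 other scalings or normalizations 8 to 12 were higher and 0 or 1 lower, with medians of 0.48 to 3.22. Of the 13, 12 were detected on all LD arrays and 2 on all HD arrays, so direction is partly set by detection. miR-223-3p, a regulator of myeloid cells, had 329, 695 and 776 in LD. In HD it was detected in culture 1 alone, at 34.1. The log2 difference was 5.07 ± 0.52, 33.5-fold with the undetected arrays at their floor (limma, adjusted p = 2.46e-05). miR-21-5p, common in tumours and activated cells, had 233, 335 and 382 in LD, against 22.2 on HD 1 and no detection on the other HD arrays. It was 21.3-fold higher in LD, at 4.42 ± 0.42 (limma, adjusted p = 1.62e-05). Culture 1 had both the lowest LD value and the only HD value of these miRNAs, so its differences were the smallest.

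miR-146b-5p, which dampens signalling from Toll-like receptors, had 120, 229 and 335 in LD, against no detection in HD, a difference of at least 17.3-fold. Its relative miR-146a-5p was dimmer, with 38.0, 46.3 and 54.8 in LD and 13.3 on HD 2 alone. miR-142, a hairpin specific to blood cells, gave the only pair of arms that both passed in the same direction among the 19 hairpins with both arms tested. miR-142-5p was detected on every array, with 62.4, 101 and 108 in LD, and 21.9, 13.5 and 13.2 in HD, a 5.58-fold higher level in LD. miR-142-3p was detected in LD only, and was at least 2.99-fold higher.

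miR-221-3p, which targets the stem cell factor receptor KIT, was at least 4.79-fold higher in LD (53.7, 42.9 and 84.6, with no detection in HD). Its cluster neighbour miR-222-3p also had a value on the 3 LD arrays and no HD array, but the LD values of 14.2, 15.4 and 18 lie near the floor, and it did not pass (adjusted p = 0.441, limma). miR-23a-3p was 7.76-fold higher (80.0, 164 and 195 in LD, against 31.9 and 14.8 on HD 1 and HD 3). Its cluster partner miR-24-3p did not follow it. miR-24-3p had 21.3, 47.5 and 80.1 in LD, and 80.0, 176 and 34.3 in HD, with a log2 difference of -0.86 ± 0.53 (limma, adjusted p = 0.228). LD was lower in cultures 1 and 2 and higher in culture 3, and without culture 3 the difference was -1.90 and passed the test. Scaled on the spike controls the difference was -1.50 and passed as well. miR-27b-3p, the third member that did not pass, was detected on LD 3 alone among the LD and HD arrays.

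The let-7 family, which acts in differentiation, leaned to LD. Of its 9 tested members with miR-98, 7 were higher in LD, 0 were lower and 2 did not pass, against 25.7% higher over all tested probes. The median log2 difference of the family was 1.54. All 7 were detected on all LD arrays and none on all HD arrays. Among tested probes with all LD arrays, 30 of 33 with no HD value and 38 of 46 with some were higher. The count thus largely restates detection. Under the other scalings 4 to 9 were higher, with medians of 0.32 to 2.50. let-7d-5p had 114, 108 and 211 in LD with no detection in HD, at least 11.4-fold higher. let-7f-5p had 99.0, 127 and 176 in LD, against 24.4 on HD 1 alone. let-7a-5p had 70.0, 111 and 83.6 in LD, against 23.7 and 15.0 on HD 1 and HD 2 and no detection on HD 3. Its log2 difference was 2.42 ± 0.37, 5.34-fold (limma, adjusted p = 0.000333). let-7c, with 64.7, 63.4 and 61.6, varied little among the LD arrays and was at least 5.23-fold higher there. let-7b-5p was near the floor in both fractions, with 19.8 and 16 on LD 2 and LD 3 and 15.1 on HD 2, and did not pass. miR-98-5p was detected on cell arrays only.

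miR-17-92 and its paralogues, clusters that promote proliferation, had 9 of 12 tested members higher in LD, 0 lower and 3 that did not pass. Their median was 2.15 (8 to 12 higher under the other scalings). All 9 were detected on all LD arrays and none on all HD arrays, so this count too largely restates detection. The share over all tested probes was 25.7% higher and 26.3% lower. miR-17-5p had 122, 134 and 172 in LD. In HD, where 2 arrays had a usable spot, it was not detected, so the LD level was at least 10.8-fold higher. miR-20a-5p had 125, 144 and 152 in LD, against 25.3 on HD 1 alone, a 9.21-fold difference. miR-20b-5p was at least 7.48-fold higher and varied more, with 50.4, 91.4 and 161 in LD. miR-92a-3p was 3.98-fold higher (50.9, 65.0 and 57.0 in LD, against 18.2 and 14.3 on HD 1 and HD 3). The 3 that did not pass, miR-18a-5p, miR-18b-5p and miR-25-3p, were each detected on 1 or 2 of the LD arrays and stayed under 26 there.

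The miR-15/16 family, known for restraint of the cell cycle, gave 4 higher, 0 lower and 2 that did not pass of 6 tested. Its median was 1.50 (3 to 6 higher under the other scalings). All 4 were detected on all LD arrays and none on all HD arrays, so this count too largely restates detection. All tested probes together gave 25.7% higher and 26.3% lower. miR-15b-5p had 170, 303 and 356 in LD, against 22.8 on HD 1 alone, and was 18-fold higher (log2 difference 4.17 ± 0.40; limma, adjusted p = 1.62e-05). miR-16-5p had 170, 281 and 379 in LD, against 49.2 on HD 1 alone, at 3.79 ± 0.58. miR-15a-5p and miR-424-5p were the members that did not pass. Both had values on some arrays of each fraction, and these overlap.

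Members of the miR-26, miR-29, miR-103 and miR-30 families were higher in LD, and none of the miR-320 family passed. The counts stand beside 25.7% higher and 26.3% lower over all tested probes. No tested member of these families was detected on all HD arrays, so direction here is partly set by detection. All 5 tested members of the miR-26 and miR-29 families were higher in LD, with a median of 2.20, and miR-26a-5p had 73.1, 99.0 and 191 in LD against 12.9 and 16.1 on HD 1 and HD 2. miR-103a-3p, at least 5.76-fold higher, and miR-107 were both higher, with a median of 2.28 for the pair. Of the miR-30 family 3 were higher and 2 did not pass, with a median of 1.46. miR-30c-5p was its largest, at 1.80 ± 0.34, while miR-30a-5p (14.8 and 16.4 on LD 2 and LD 3, and 13.6 on HD 2) and miR-30e-5p (22.0, 29.4 and 17.9 in LD and none in HD, adjusted p = 0.0533 in limma) did not pass. miR-30e-5p passed as higher in 6 of the alternative settings, and the call of miR-30c-5p was lost in 3, with slide as a fixed block (1.15), within the slide (0.96) and with log2 of the value plus 1. Under the other scalings 1 to 5 of the miR-30 family were higher, with medians of 0.27 to 2.42. None of the 5 tested members of the miR-320 family passed. Their median of 0.01 is the difference of the floors, since miR-320b, miR-320d and miR-320e were on no LD or HD array. That family was detected on all 3 arrays of neither fraction, and under the other scalings 0 to 3 were higher, with medians of -0.63 to 0.98. The miR-26 and miR-29 families had 4 or 5 higher under those scalings, and miR-103a-3p and miR-107 stayed higher.

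**Figure D3:**
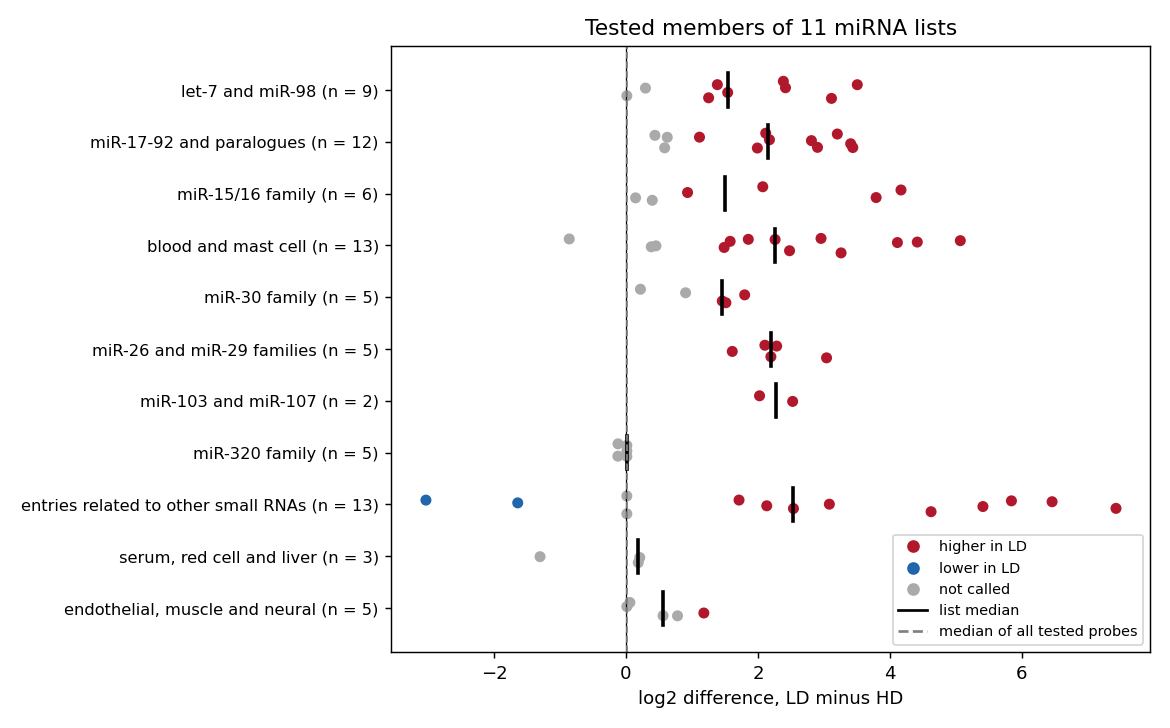
Log2 difference (LD minus HD, horizontal axis) of each tested member of 11 miRNA lists (rows); red points are higher in LD, blue points lower and grey points did not pass the test, a black line is the median of the list and the dashed line the median of all 334 tested probes, 0.01. The lists of conserved families and of blood cell miRNAs lie right of 0 except for miR-24-3p. The miR-320 family, mostly undetected in both fractions, lies near 0, and the entries related to other small RNAs spread to both sides. The dashed line stands at the difference of probes undetected in both fractions.

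A smaller group of G-rich or GC-rich entries was also higher in LD and was detected on all 6 arrays. miR-4508 was 5.26-fold higher (302, 605 and 618 in LD, and 165, 90.4 and 52.2 in HD; limma, adjusted p = 0.00115). miR-3665 was 4.41-fold higher (383, 544 and 483 in LD, and 155, 108 and 69.8 in HD). No function is assigned here to these entries, which were registered from sequencing surveys. miR-4734 was 4.30-fold higher, miR-4505 3.73-fold, miR-3621 3.38-fold and miR-4723-5p 3.19-fold. Their LD and HD ranges did not overlap, although for miR-4723-5p the highest HD value, 162, lies just under the lowest LD value, 170. All 6 of these calls were lost within the slide that holds both fractions, where the log2 differences were 1.08 to 2.10, and those of miR-4508 (1.13), miR-4734 (1.24) and miR-4723-5p (1.16) also with slide as a fixed block. miR-4723-5p lost its call with the spike controls as scale (1.03) as well. miR-4758-3p was detected on the 3 LD arrays and no HD array, at least 6.33-fold higher.

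The largest differences in favour of HD among probes on all 6 arrays were those of miR-4655-5p and miR-1202. miR-4655-5p had 80.2, 18.7 and 65.8 in LD, and 1838, 2536 and 1019 in HD. It was 36.4-fold lower in LD, at a log2 difference of -5.19 ± 0.50 (limma, adjusted p = 1.62e-05), and LD 2 was its lowest array. miR-1202 had 17.1, 18.2 and 33.2 in LD, and 641, 1089 and 358 in HD, a 29.0-fold lower signal in LD (limma, adjusted p = 1.18e-05). Neither is a marker of a known cell type. miR-1202 was detected on no cell array, and miR-4655-5p on 2 cell arrays at 15.1 and 11.3.

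miR-4530 was the brightest of these in HD, with 510, 658 and 724 in LD, and 14498, 19744 and 9047 in HD. It was 22.0-fold lower in LD, at -4.46 ± 0.36 (limma, adjusted p = 7.53e-06), and its cell arrays had 298, 204 and 149. miR-4688 had 106, 117 and 171 in LD, and 5680, 2622 and 1607 in HD, and was 22.5-fold lower. miR-575 was 23.2-fold lower, with a wide spread in HD (15.1, 52.9 and 43.1 in LD, and 707, 1889 and 324 in HD). The HD arrays of these probes differed from each other by up to several fold, and the gap between the fractions was larger in each case.

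Further probes lower in LD had smaller ratios. miR-4459 had 78.0, 64.2 and 68.7 in LD, and 1181, 1608 and 1126 in HD (18.4-fold lower in LD), and miR-6076 had 21.8, 17 and 25.5 in LD, and 472, 452 and 310 in HD (19.1-fold lower). miR-1275 was 15.9-fold lower, with 70.9, 71.2 and 123 in LD, and 1191, 2470 and 844 in HD. miR-6124 was 13.9-fold lower and, like miR-1202, was on no cell array. miR-494, an entry of the imprinted cluster on chromosome 14, was 3.83-fold lower (22.6, 53.3 and 51.1 in LD, and 196, 260 and 67.7 in HD; limma, adjusted p = 0.00413), and its cell arrays were higher still, at 354, 467 and 263.

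Other bright probes of HD fell outside the naming rule and were chosen after their values were seen. miR-204-3p had 770, 1122 and 983 in LD, and 10433, 8524 and 4670 in HD (7.88-fold lower in LD). miR-4739 had 332, 513 and 467 in LD, and 2437, 3999 and 2088 in HD (6.35-fold lower). miR-887 had 20.9 and 11.7 on LD 2 and LD 3 with no detection on LD 1, and 472, 562 and 200 in HD, at a log2 difference of -4.66 ± 0.33. It was on no cell array.

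Among probes found on all HD arrays and no LD array, miR-3622a-5p was at least 15.2-fold lower in LD, with 178, 323 and 112 in HD. miR-3619-3p was at least 12.8-fold lower (186, 171 and 119 in HD), and miR-1224-5p at least 12.7-fold (87.6, 297 and 142 in HD). miR-4698 was at least 8.24-fold lower, miR-150-3p at least 6.76-fold, miR-30c-1-3p at least 4.56-fold, miR-4476 at least 3.93-fold and miR-4258 at least 3.16-fold. Of these 8 probes, 5 were on no cell array. miR-150-3p and miR-30c-1-3p were on cell array 2 alone, at 13 and 13.2, and miR-3622a-5p on cell array 3 alone, at 12.9, all close to the floor. miR-4476 was uneven, with 164 on HD 2 against 27.3 and 24.8 on HD 1 and HD 3, and its call was lost under 5 of the alternative settings.

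The arms of 1 hairpin could go opposite ways. Of the 19 hairpins with both arms tested, 3 had arms that passed in opposite directions, 1 had both higher in LD, and in 15 at most 1 arm passed. These hairpins were chosen after their values were seen. miR-125a-5p had 31.9, 22.4 and 31.0 in LD with no detection in HD, while miR-125a-3p had 15.4 and 16.9 on LD 1 and LD 3, and 57.3, 70.6 and 38.5 in HD. Their log2 differences were 1.21 ± 0.29 and -1.84 ± 0.32. Both arms were on all 3 cell arrays, where they had 68.3, 93.8 and 103 (5p) and 76.5, 94.1 and 50.3 (3p).

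miR-92b-3p, of the same seed as miR-92a-3p, had 22.9 and 44.1 on LD 2 and LD 3 and no value in HD (log2 difference 0.98 ± 0.37; limma, adjusted p = 0.0453). Its other arm miR-92b-5p had 28.5, 36.0 and 27.5 in LD, and 143, 318 and 97.1 in HD, at -2.43 ± 0.34. miR-4758-3p favoured LD at 2.66 ± 0.32, and miR-4758-5p, with 23.4 on LD 1 alone and 35.1, 34.6 and 25.2 in HD, favoured HD at -1.09 ± 0.32. In each of the 3 hairpins the arm with more G was lower in LD, as the printed sequences show. miR-30c-5p (1.80) and miR-30c-1-3p (-2.19) parted in the same way. Other hairpins had 1 arm that passed as lower and 1 that did not pass. The lower arm had more G in miR-423 and miR-3679. It had less G in miR-1228 (3p, 10% against 66.7%) and in miR-652 (5p, 28% against 38.1%). The difference between arms was not tested.

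A pair of near-identical sequences also parted. miR-642b-3p had 69.0, 53.9 and 61.0 in LD, and 1798, 912 and 1135 in HD, 20.2-fold lower in LD (log2 difference -4.33 ± 0.36; limma, adjusted p = 9.37e-06). miR-642a-3p, which differs by C20A (miR-642b-3p first) and was chosen after its values were seen, had 157, 214 and 181 in LD, and 145, 130 and 96.3 in HD. Its log2 difference was 0.58 ± 0.28 and did not pass (limma, adjusted p = 0.118), although the LD values all lie above the HD values. How far these probes take up each other's RNA was not tested.

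Probes that passed and shared a seed mostly moved together. The seed was shared by 2 or more tested probes in 34 cases, and in 18 of these at least 2 probes passed. In 12 all that passed were higher in LD, in 5 all were lower and in 1 both directions occurred. Over all tested probes 25.7% were higher and 26.3% lower, which is not a rate of agreement between such probes. These counts leave out members that did not pass. With GACACAU, miR-642b-3p was lower (-4.33) and miR-642a-3p did not pass (0.58). With GCUACAU, miR-221-3p was higher (2.26) and miR-222-3p did not pass (0.38). With GUAAACA, 1 of 3 was higher and the others did not pass. All 6 tested probes with AAAGUGC, the seed of miR-17-5p, miR-20a-5p, miR-20b-5p, miR-93-5p, miR-106a-5p and miR-106b-5p, were higher, between 2.12 and 3.44. Of 8 with the let-7 seed GAGGUAG 6 were higher, and of 6 with AGCAGCA, the seed of miR-15b-5p and miR-16-5p, 4 were. The seeds on the HD side were UGGGGGA of miR-1275 and miR-4665-5p, GGGCGUG of miR-1268a and miR-1268b, GGGAGGG of miR-149-3p and miR-4728-5p, GGUGCGG of miR-4466 and miR-675-5p, and GCAGGGG of miR-1909-3p and miR-6722-3p. The mixed case was GGCUGGG, with miR-4505 at 1.90 and miR-5787 at -1.84. Members of a family resemble each other beyond the seed, so their probes are not independent.

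The base composition of the probes was described in the same way. A mature sequence was found for 279 of the 334 tested probes (83.5%). Among probes detected on all arrays of a fraction, the median G plus C content was 47.8% in the 70 higher in LD, 69.6% in the 73 lower and 72.7% in the 43 that did not pass. Spearman's rho between G plus C and the log2 difference was -0.42 over 186 probes. Over the 78 probes detected on all 6 arrays it was 0.18, and the medians were 73.6% in the 12 higher, 72.0% in the 41 lower and 80.0% in the 25 that did not pass. These are correlations across probes, which share arrays and sequence families. The second set leaves out, by its own filter, probes that some HD arrays did not detect, so nothing is read from the change between these sets. Probe signal itself depends on base composition, and its part in this pattern was not tested.

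GGAG was counted because it is known as a motif of miRNAs sorted into vesicles of T cells, where the protein hnRNPA2B1 binds it. Read on the RNA strand only, it was present in 7.14% of the sequences higher in LD, 56.2% of those lower and 32.6% of those that did not pass, among probes detected on all arrays of a fraction. Among probes detected on all 6 arrays the shares were 8.33%, 58.5% and 36.0%. Of all 2370 mature sequences of RefSeq, 372 hold it (15.7%). GGAG is more frequent in G-rich sequences, and the median G content of the same groups was 27.9%, 50% and 52.2% in the first case and 54.8%, 52.4% and 54.5% in the second. A match is a run of letters and not a binding site. Of the sequences printed above, those shown for HD hold it except miR-4655-5p and miR-4688, and none of those shown first for LD does. The printed sequences are a selection, so this contrast depends on the choice. Of the 70 sequences higher in LD, 5 hold GGAG, among them miR-3135b (log2 difference 3.00), which is not printed.

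**Figure D4:**
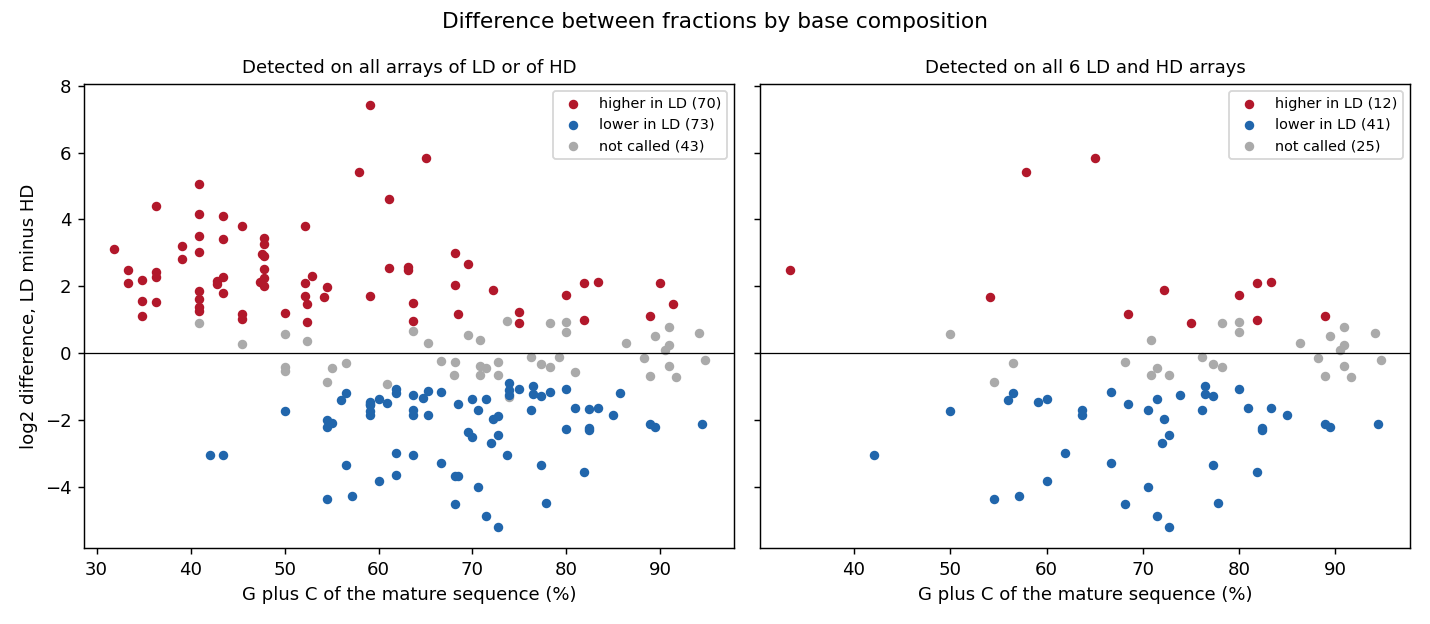
Log2 difference (LD minus HD, vertical axis) against the G plus C content of the mature sequence in percent (horizontal axis), for probes detected on all arrays of LD or of HD (left panel, 186 probes) and on all 6 arrays (right panel, 78 probes); red is higher in LD, blue lower and grey did not pass the test. The right panel holds few of the red points under about 55% of the left panel, since probes that HD arrays missed are left out of it.

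The smallest differences among probes on all 6 arrays that did not pass were those of miR-1237-5p (0.10 ± 0.33), miR-1228-5p (-0.11 ± 0.33), miR-3178 (-0.13 ± 0.40), miR-4634 (-0.20 ± 0.42) and miR-1469 (0.25 ± 0.40). miR-1237-5p had 381, 585 and 581 in LD, and 581, 540 and 338 in HD. LD was lower in culture 1 and higher in cultures 2 and 3 for this probe. A p that misses the threshold does not show that the fractions were equal. With each array scaled on the probes common to all 6 arrays, which raises the median to 0.98, 4 of these 5 passed as higher in LD: miR-1237-5p at 1.06, miR-1469 at 1.21, miR-1228-5p at 0.86 and miR-3178 at 0.83. miR-1237-5p also passed as higher with quantile normalization (0.51), with normexp (0.58) and in the authors' deposited table (0.44).

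Markers of other cell types were mostly dim. miR-451a, a miRNA of red cells and serum, was detected on every LD and HD array, with 32.9, 72.6 and 95.4 in LD, and 568, 49.6 and 121 in HD. Its log2 difference was -1.30 ± 0.86 and did not pass (limma, adjusted p = 0.257), since HD 1 was several times the other HD arrays and HD 2 lay within the LD range. Its cell arrays had 52.4 and 37.1 on 2 arrays and no detection on cell array 1. The 8 red cell, serum and liver miRNAs on the array summed to between 53.2 and 106 per LD array and between 68.2 and 597 per HD array, and none of the 3 tested passed. The liver miRNA miR-122-5p was on no LD or HD array.

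Of 11 epithelial miRNAs none was detected on all arrays of any group, and their sum was at most 41.2 on an LD array and 50.5 on an HD array. Of 14 endothelial, muscle and neural miRNAs, 9 were on at least 1 LD array and 0 on any HD array. Their sums were 42 to 137 in LD, 0 in HD and 321 to 782 on the cell arrays. On the LD arrays miR-126-3p was on all 3, miR-143-3p, miR-10b-5p, miR-9-5p and miR-128 on 2, miR-1, miR-124-3p, miR-126-5p and miR-218-5p on 1, and miR-133a, miR-133b, miR-145-5p, miR-206 and miR-9-3p on none. Of those on LD arrays, miR-143-3p, miR-1, miR-124-3p and miR-218-5p were on no cell array. miR-126-3p, miR-10b-5p, miR-9-5p and miR-128 were on all 3 cell arrays, and miR-126-5p on 2. Of the 5 tested, miR-126-3p, an endothelial miRNA, was higher in LD (13.7, 31.9 and 47.4, with no detection in HD; limma, adjusted p = 0.0224), and its call was lost under 13 of the alternative settings. The other 4 did not pass, and under the other scalings 0 to 5 of the 5 were higher. The part of such cells or of culture serum in the differences was not tested.

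The differences were repeated across cultures with unequal size. Over the 221 probes detected on all arrays of a fraction, the LD minus HD differences of cultures 1 and 2, 1 and 3, and 2 and 3 correlated at 0.919, 0.907 and 0.952 across probes. Many of these probes entered through the only fraction that detected them throughout, which tends to fix their direction and adds to the agreement. Over the 92 probes detected on all 6 arrays the correlations were 0.904, 0.905 and 0.947. For the 86 probes higher in LD the median difference was 1.34 in culture 1, 2.33 in culture 2 and 2.64 in culture 3. For the 88 lower probes it was -2.33, -2.32 and -1.27. Arrays of a fraction were closer to each other (0.947 to 0.971 among LD, 0.962 to 0.972 among HD) than LD was to HD (0.531 to 0.641). Calls were made on the same arrays, so these medians describe the calls and do not test them.

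**Figure D5:**
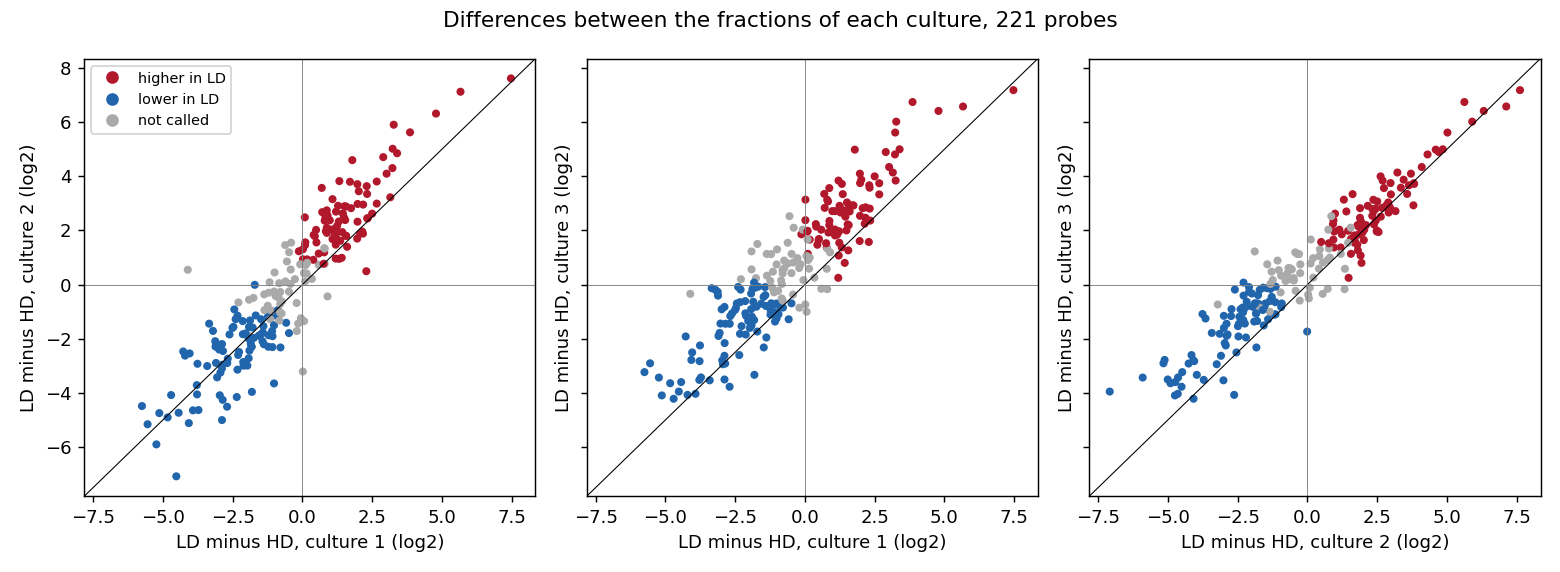
Log2 difference between LD and HD in 1 culture against that in another, for the 3 pairs of cultures, with 221 probes detected on all arrays of a fraction; red is higher in LD, blue lower, grey did not pass the test, and the diagonal marks equal differences. The points follow the diagonal with correlations of 0.907 to 0.952, most red points lie above it where culture 1 is on the horizontal axis, and most blue points lie above it where culture 3 is on the vertical axis.

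Slide and scaling touch these counts. LD 1 was the only LD array on the slide of the HD arrays, and within that slide (LD 1 against the 3 HD arrays) 44 probes were higher and 29 lower, of which 41 and 28 had also passed in the comparison of all arrays. With slide as a fixed block 50 were higher and 77 lower, and with slide as a random block 69 and 85. All 174 differences kept their sign in these 3 fits. Within the slide the log2 difference was 7.40 for miR-5100, 5.62 for miR-4454, 4.29 for miR-223-3p, -4.75 for miR-4530 and -5.21 for miR-1202. The median detected probe, on which the authors scaled each array, need not be the same in the fractions. Without that scaling 71 were higher and 29 lower, scaled on the spike controls 56 and 107, and scaled on the probes common to all 6 arrays 206 and 50, with medians of 0.68, -0.63 and 0.98 over all tested probes. Under all 6 scalings or normalizations tried in place of the authors', 53 of the 86 higher and 29 of the 88 lower probes passed, and no probe that passed in 1 direction passed in the other.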

How the data were processed

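RNA was labelled with Hy5 and hybridised to miRCURY LNA arrays in 1 colour, per the labels. Scanner and image software: not given in the sources used here. Per the file headers, the authors' deposited columns hold raw, background-subtracted and globally normalized intensity. A comparison of these columns shows 1 background value subtracted per array, empty values where the raw intensity was not above the mean plus 2 SD of the blank spots, and 1 factor per array that sets the median detected miRNA probe to 25. The authors also deposited a log2 table of the whole series, used as an alternative. The 25 values marked NG, a mark the files do not define, were left out.

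The log2 of the normalized intensity was tested with limma 3.58.1 in R 4.3.3 (lmFit, contrasts.fit, eBayes), with the 3 groups and the culture in the model and all 9 arrays sharing 1 spread per probe (4 residual and 6.05 prior degrees of freedom). Undetected probes took the array's floor, its lowest detected value (log2 3.26 to 3.75). For a probe without detection in HD, such as let-7c, the HD spread is that of the floors alone (SD 0.07). Standard errors and p-values of probes with undetected arrays therefore rest in part on set values and can be too small. Tests covered the 334 probes with a value on all 3 arrays of a group, and Benjamini-Hochberg adjusted p under 0.05 over them was the threshold. Standard errors are those of the model. A fold against a fraction with no detection is a bound, the detected mean over the mean floor, and a fold with some arrays at their floor understates the change. The number of arrays limits the precision, and probe signals were not compared between miRNAs.

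The pairing by culture comes from the design text. Deviations of same-numbered LD and HD arrays from their group means correlated at -0.18, -0.02 and -0.16, so these arrays did not deviate together. The members and lists were chosen with earlier results of these data known. Named probes were, beside fixed markers, the 10 largest changes in each direction on all 6 arrays, the 8 largest bounds in each direction, the 5 smallest differences on all 6 arrays that did not pass, and from each list the extreme members and up to 3 that did not pass. The lists are the let-7 family with miR-98, the miR-17-92 paralogues, miR-15/16, miR-30, miR-26 and miR-29, miR-103 and miR-107, miR-320, blood and mast cell, entries related to other small RNAs, red cell, serum and liver, epithelial, and endothelial, muscle and neural miRNAs. Sequences were matched by miRNA name. The fitting script was tested on simulated data. Alternatives changed the block, the arrays, the filter, undetected values, scaling, normalization, slide and replicates. Plots used Python 3.11.15 and matplotlib 3.10.9.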

Additional observations from a re-analysis of the deposited data

How the results depend on the processing

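The fit without culture as a block gave 170 probes that passed, 82 higher in LD and 88 lower, against 174, 86 and 88 with it, and the pairing changed the call of no named probe. Leaving out each array in turn gave 137 to 179 probes, 69 to 94 higher and 68 to 97 lower, with the fewest without HD 2; leaving out a culture gave 113 to 173, with 60 to 94 higher and 53 to 91 lower, and the lowest counts (113, 60 and 53) without culture 2. Probes detected on all 6 arrays gave 62 (14 higher, 48 lower) of 92 tested, and undetected values left missing 113 (50 higher) of 190 tested, both with fewer probes tested. Without scaling 100 passed (71 higher, 29 lower). Scaled on the probes common to all 6 arrays 206 were higher and 50 lower, among them probes at the floor in both fractions, and scaled on the spike controls 56 were higher. Slide as a fixed block left 50 higher, and the slide with both fractions 73 (44 higher, 29 lower), where only LD 1 stands for LD and is assumed to vary like the other groups. The cause of the other shifts was not tested.

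In none of the 25 alternatives did a probe that passed in 1 direction pass in the other, and 28 of the 86 higher and 21 of the 88 lower passed in every alternative that tested them. Of the 56 named calls, 32 were kept in all, 22 were lost within the slide and 11 of these in that alternative alone. Without 1 culture or array, miR-3648 lost its call 6 times, without LD 1, LD 2, HD 1 or HD 2 or culture 1 or 2 (-1.74 to -0.79), as did miR-126-3p without LD 2, LD 3, HD 2 or HD 3 or culture 2 or 3 (0.78 to 1.17); miR-4476 lost it without LD 2 (-1.58), miR-4723-5p without culture 3 (1.20) and miR-494 without culture 2 (-1.76). miR-24-3p passed as lower without LD 3 (-1.60), HD 3 (-1.68) or culture 3 (-1.90). miR-451a passed as lower, with the same difference of -1.30, in the fits to probes detected on all arrays of a fraction or on all 6 arrays. It also did so with undetected values left missing. These fits estimate the spread anew from fewer probes, which changes the error as well as the number of tests. Scaled on the spike controls, miR-451a passed as lower at -1.94. Of the 22 named probes that did not pass, 19 passed as higher under scaling on the probes common to all 6 arrays. Among them miR-1228-5p (0.86) and miR-3178 (0.83) turned positive. Under the 6 other scalings or normalizations the entries related to other small RNAs gave 8 to 11 higher and 1 or 2 lower (medians of 0.79 to 3.50), and the serum, red cell and liver list 0 to 2 higher and 0 or 1 lower (-0.46 to 1.15). The number of detected probes turned from 37.7 more in LD to -0.50 without culture 3, against 66.5 without culture 1 and 47.0 without culture 2, and was 18.3 with a limit of 3 SD over the blank spots.

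Signals near the array floor limit what can be seen: 41 tested probes were detected on no LD or HD array, and their difference of 0.01 is that of the floors. RNA amount, slide and fraction cannot be fully separated with 3 cultures of 1 cell line.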
